A study of Mus musculus with 12 samples.

Results

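The genes Tlr4, Ly96, Cd14, Tlr2, Myd88, Ticam1, Ticam2, Irak1, Irak2 and Irak3, which encode the receptor for lipopolysaccharide (LPS), its co-receptors, its adaptors and kinases of the Irak family, were followed in mouse bone marrow-derived dendritic cells (BMDCs). They were selected by symbol and not by a rule on their measured values, though earlier results of these data were known. The gene identifiers of the deposited tables were matched to the mouse GENCODE annotation. All 10 were present among the 55335 genes listed, and all 10 were among the 14357 genes that passed the filter on low counts. The smallest expected count of any of them in any library was 253, for Ly96.

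Bulk RNA-seq was performed on WT BMDCs in 4 groups of 3 libraries, which were untreated cells (WT), cells given LPS at 100 ng/ml for 3 h (WTL), cells given the inhibitor JSH-23 at 100 µM for 3 h (WT + JSH23) and cells given JSH-23 and then LPS (WTL + JSH23). JSH-23 is a small molecule that prevents the NF-κB subunit RelA from entering the nucleus. Bone marrow of C57BL/6 mice was cultured with GM-CSF for 6 days with fresh medium every 2 days, and the CD11c+ floating cells were kept. All 4 groups carried the CreER transgene, a tamoxifen-inducible Cre recombinase expressed from the Rosa26 locus, with an intact Ctcf gene, so the controls carried it too. The methods give male and female mice of 8 to 12 weeks. The sources used here do not say whether marrow of several mice was pooled, whether these WT cultures also received tamoxifen, or whether the cells without JSH-23 were given its solvent, so an effect of that solvent cannot be told apart from that of the inhibitor. WT and WTL replicates are numbered 4 to 6 and those of the JSH-23 groups 1 to 3, and values of single libraries are given below in that order.

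LPS is handed to the cell surface by the soluble LPS-binding protein and by CD14, and is held there by MD-2, the product of Ly96, bound to TLR4. Separate adaptor branches follow, since MyD88 recruits the kinases IRAK4, IRAK1 and IRAK2 at the plasma membrane and leads to NF-κB, whereas TRIF (Ticam1), bridged by TRAM (Ticam2), signals from endosomes and leads to type I interferon. IRAK3, also known as IRAK-M, restrains the MyD88 branch, and TLR2 is the receptor for bacterial lipopeptides, which also works through MyD88.

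Total expected counts ran from 24664724 to 34837847 per library. No pair of replicates agreed within sampling noise. The 2 pairs with WTL + JSH23 replicate 3 differed most, at 8.19 and 9.12 times the variance of counting alone, against 2.32 to 4.50 for the other pairs of any group. Il6, Tnf and Nfkbia, which respond to LPS in these cells, were higher with LPS in both arms, by 5.93, 4.22 and 2.15 log2 units without JSH-23 and by 4.72, 5.30 and 2.03 with it. The summed level of 6 dendritic cell markers (Itgax, Zbtb46, Flt3, Ccr7, Cd74, H2-Ab1) was 12390 to 12620 CPM (counts scaled to a common library size) in WT, 14469 to 15406 in WTL, 11901 to 12275 in WT + JSH23 and 12963 to 14227 in WTL + JSH23. With LPS, 5 of these 6 were higher in each arm, and with JSH-23, 1 was higher and 4 lower under LPS and 2 were higher and 2 lower without it. The summed level of 5 macrophage markers (Adgre1, Csf1r, Fcgr1, Mertk, C5ar1) was 1611 to 1716 CPM in WT, 1200.1 to 1304 in WTL, 1137 to 1185 in WT + JSH23 and 938 to 1020.0 in WTL + JSH23. With JSH-23, 5 of those 5 macrophage markers were lower without LPS and 4 under LPS. With LPS, 3 were higher and 2 lower in each arm. The neutrophil list (Ly6g, S100a8, S100a9, Camp, Ltf, Ngp) summed to 42.3 to 47.5 CPM in WT, 59.9 to 61.2 in WTL, 40.8 to 45.4 in WT + JSH23 and 43.9 to 48.4 in WTL + JSH23, with Ly6g between 0 and 0.230 CPM. Of the 5 tested, 4 were higher with LPS alone and 5 lower with JSH-23 under LPS. The T cell, B cell and mast cell and basophil lists summed to at most 0.833, 0.433 and 8.18 CPM, and no marker of any list was at 0 in all libraries of a group. Macrophages express all of these receptors and co-receptors, and in bulk RNA fewer cells of a type cannot be told apart from less RNA per cell. The part of these marker shifts in the results below was not tested.

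The sequence before the start site was at hand for 6 of the 10 genes, from RefSeq on build GRCm38.p6. It was searched on both strands, over 250 bases, for the κB consensus bound by NF-κB, the AP-1 site TGANTCA, the PU.1 site GAGGAAGT and the interferon response core, which is GAAA, any 2 bases and GAAA again. Among 32851 such windows, 7.25% held the κB consensus, 6.75% the AP-1 site, 2.44% the PU.1 site and 2.98% the interferon core. Of the 6 genes, Tlr2 and Irak1 held a κB match, Myd88 held an interferon core match, and Ticam1, Irak2 and Irak3 held no match to any of the 4. The sequences of the 3 genes with a match are shown, and that of Irak2 because it moved opposite to Irak1. Tlr2 and Myd88 moved in the same direction as Irak2 in all 4 comparisons of groups given below. Capitals mark the matches, and each sequence stops where an annotated exon of the gene begins. Tlr2 (chr3:83841768-83841858, minus strand) holds 2 overlapping κB matches, 173 to 163 bases before its RefSeq start. The 159 bases next to that start lie in a GENCODE exon of Tlr2, so the matches lie nearer to its GENCODE start. The match of Myd88 (chr9:119340042-119340268, minus strand) lies 40 to 31 bases before its RefSeq start. That stretch lies inside the GENCODE span of Myd88 (chr9:119335934-119341411), not in front of it. The κB match of Irak1 (chrX:74023919-74024168, minus strand) lies 21 to 12 bases before the later entry of its 2 listed starts. Irak2 (chr6:113638217-113638466, plus strand) is shown in full without capitals.
Tlr2: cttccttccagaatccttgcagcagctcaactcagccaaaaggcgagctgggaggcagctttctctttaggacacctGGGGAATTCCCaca
Myd88: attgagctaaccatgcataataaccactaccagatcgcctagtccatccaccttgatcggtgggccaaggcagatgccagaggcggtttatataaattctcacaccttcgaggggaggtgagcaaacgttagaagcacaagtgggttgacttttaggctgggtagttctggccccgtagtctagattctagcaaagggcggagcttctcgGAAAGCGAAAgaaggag
Irak1: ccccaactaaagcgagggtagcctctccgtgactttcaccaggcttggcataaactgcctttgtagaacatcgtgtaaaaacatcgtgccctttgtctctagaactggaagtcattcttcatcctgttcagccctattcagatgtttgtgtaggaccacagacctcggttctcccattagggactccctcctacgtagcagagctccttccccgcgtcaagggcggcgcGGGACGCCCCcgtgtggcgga
Irak2: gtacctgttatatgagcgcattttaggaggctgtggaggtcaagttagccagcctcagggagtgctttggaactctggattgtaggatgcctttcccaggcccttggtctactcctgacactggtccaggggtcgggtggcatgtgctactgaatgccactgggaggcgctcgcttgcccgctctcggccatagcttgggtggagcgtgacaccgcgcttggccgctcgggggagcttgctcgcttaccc

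Each gene was compared in 5 ways, and a gene is said to have risen, fallen or changed where edgeR's quasi-likelihood test gave a Benjamini-Hochberg adjusted p under 0.05 over all genes tested. With LPS alone (WTL against WT), 7 of the 10 genes rose and 3 fell, where 31.0% of all genes tested rose and 34.7% fell. The median log2 change was 0.56 over the 10 genes and -0.05 over all genes tested. With LPS after JSH-23, 6 rose, 3 fell and Ticam1 did not pass, against 27.4% and 27.1% of all genes, with medians of 0.48 and -0.02. JSH-23 without LPS raised 4 of them (Cd14, Ly96, Ticam1, Irak1) and lowered the other 6, against 18.8% and 22.1% of all genes, with medians of -0.28 and -0.01. Under LPS, JSH-23 raised 2 (Tlr4, Irak1) and lowered 7, and Ly96 did not pass, against 24.5% and 24.2%, with medians of -0.29 and 0.02. The LPS change itself differed between the arms for 5 genes, being more positive with JSH-23 for Tlr4 and more negative for Cd14, Myd88, Ticam1 and Irak2, where 9.54% and 8.44% of all genes passed in those directions. Most changes were small. Beyond 2-fold, only Cd14 and Irak3 rose and only Tlr4 fell with LPS alone, against 7.36% and 9.09% of all genes. Cd14 and Irak3 also rose by more than 2-fold with LPS after JSH-23, against 5.85%, and Myd88 alone was lowered beyond 2-fold by JSH-23 under LPS, against 3.25%. The comparisons share libraries in pairs and are not independent of each other.

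**Figure D1:**
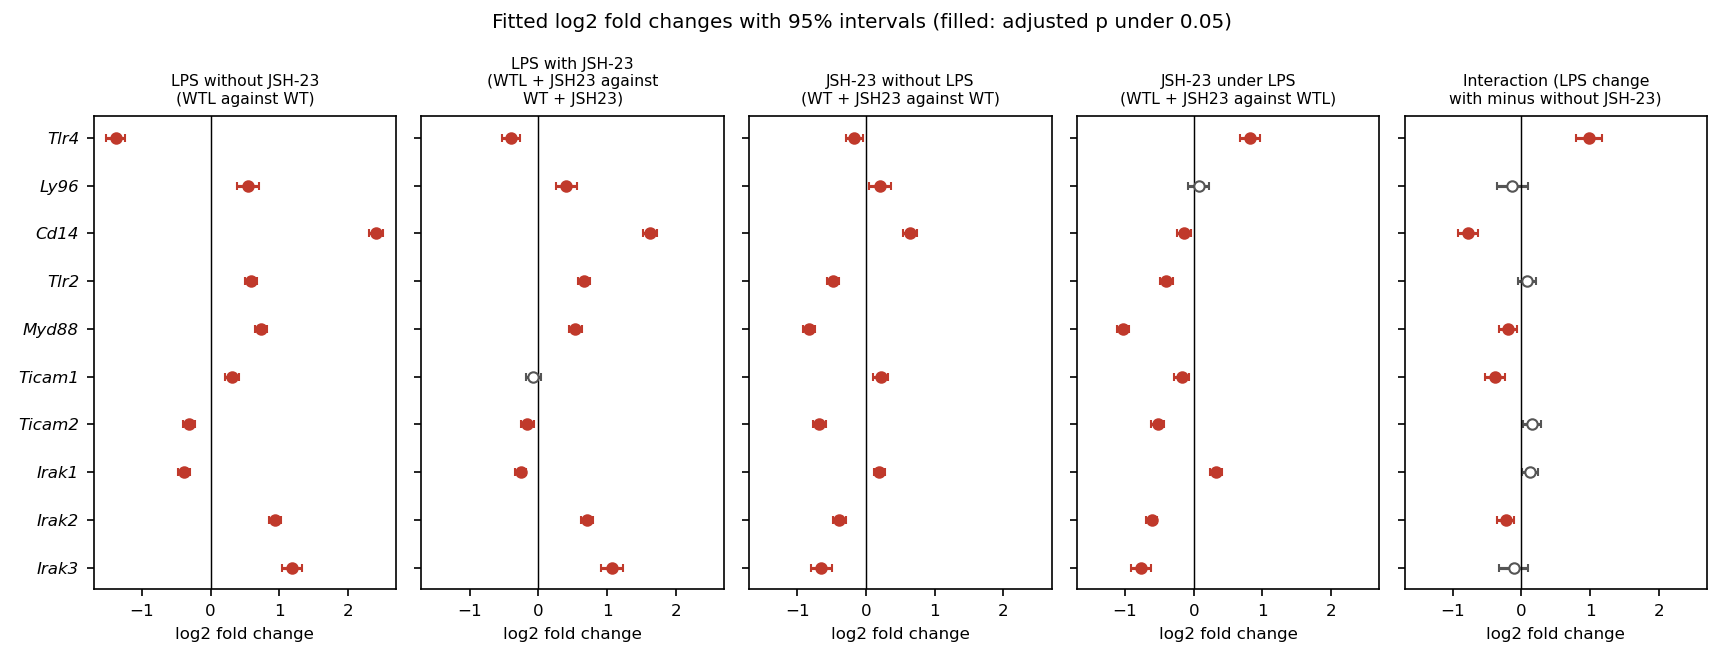
Fitted log2 fold change (horizontal axis) of the 10 genes in the 5 comparisons, with 95% intervals; filled points passed at an adjusted p under 0.05. Tlr4 lies at -1.38 with LPS alone and at -0.40 with LPS after JSH-23, and Myd88 lies below 0 in both JSH-23 comparisons (-0.83 and -1.03). The small positive value of Ticam1 with LPS alone (0.32) is not kept on TPM (-0.016).

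Tlr4, the signalling receptor (chr4:66827584-66930284, plus strand), was the member lowered most by LPS. Its level was 40.2, 43.1 and 37.1 CPM in WT and 16.2, 15.6 and 14.3 CPM in WTL. Every WTL library lay below every WT library, and Tlr4 fell by 1.38 log2 units (SE 0.07, adjusted p = 6.09e-14). After JSH-23 it was 37.8, 35.3 and 34.0 CPM without LPS and 28.0, 26.9 and 26.5 CPM with LPS, again without overlap but closer together. That fall was 0.40 log2 units (log2 change -0.40, SE 0.06, adjusted p = 1.29e-05), and the difference between both falls was 0.99 (SE 0.09, adjusted p = 2.52e-07). Under LPS, JSH-23 thus left Tlr4 1.76-fold higher than in WTL (log2 change 0.82, SE 0.07, adjusted p = 2.47e-09), at a level still below every WT library. Without LPS, JSH-23 lowered Tlr4 slightly (log2 change -0.17, SE 0.06, adjusted p = 0.0233), with overlapping libraries. That small change did not pass without WT replicate 4 (adjusted p = 0.0557), WT replicate 5 (0.160), WT + JSH23 replicate 2 (0.0667) or WT + JSH23 replicate 3 (0.122), nor with DESeq2 (0.0616).

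Ly96 (chr1:16688051-16709611, plus strand), whose product MD-2 forms the LPS pocket beside TLR4, moved the other way with LPS. It was 10.03, 9.65 and 8.73 CPM in WT and 13.3, 14.2 and 13.9 CPM in WTL, and 9.99, 11.4 and 11.4 CPM in WT + JSH23 and 13.7, 14.8 and 15.0 CPM in WTL + JSH23. Within each arm the LPS libraries lay above all those without LPS. The rise was 0.54 log2 units without JSH-23 (SE 0.08, adjusted p = 2.44e-06) and 0.41 with it (SE 0.08, adjusted p = 9.56e-05), and the difference of both was -0.13 with a 95% interval of -0.35 to 0.09. With limma on log2(TPM + 1) both rises of Ly96 were smaller, at 0.19 (adjusted p = 0.0189) and 0.19 (adjusted p = 0.0270). JSH-23 under LPS gave a log2 change of 0.07 (interval -0.09 to 0.23, adjusted p = 0.470), which did not pass with edgeR but did on TPM (0.19, adjusted p = 0.0325). On TPM the median of all genes lay at 0.12 in that comparison. Without LPS, JSH-23 raised Ly96 by 0.20 (SE 0.08, adjusted p = 0.0432), with 1 WT + JSH23 library inside the WT range. That call was lost without WT replicate 5 (adjusted p = 0.0703), WT replicate 6 (0.183), WT + JSH23 replicate 2 (0.131) or replicate 3 (0.155), and with DESeq2 (0.112).

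Cd14, the co-receptor that delivers LPS to TLR4 and MD-2 (chr18:36725067-36726798, minus strand), was the member raised most. It was 236, 244 and 237 CPM in WT and 1294, 1298 and 1209.8 CPM in WTL, with no library in between. The rise was 5.30-fold (log2 change 2.41, SE 0.05, adjusted p = 8.80e-20). JSH-23 alone also raised it, to 361, 358 and 399 CPM (log2 change 0.64, SE 0.05, adjusted p = 7.75e-10). On top of that LPS brought it to 1089, 1127 and 1239 CPM in WTL + JSH23, a rise of 3.09-fold (log2 change 1.63, SE 0.05, adjusted p = 6.96e-17). The smaller rise, with a difference of -0.78 (SE 0.07, adjusted p = 2.05e-07), thus started from a higher level and ended close to WTL. WTL and WTL + JSH23 libraries overlapped, and the change of -0.14 between them (SE 0.05, adjusted p = 0.0215) did not pass without WTL replicate 4 (0.0805), WTL replicate 5 (0.0874), WTL + JSH23 replicate 1 (0.150) or WTL + JSH23 replicate 2 (0.0707), nor with limma on log2(TPM + 1) (log2 change -0.0090, adjusted p = 0.883).

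Tlr2, the lipopeptide receptor (chr3:83836272-83841767, minus strand) and holder of the paired κB match shown above, rose with LPS in both arms. It was 259.9, 273 and 266 CPM in WT and 403, 391 and 406 CPM in WTL, and 181, 189.8 and 202 CPM in WT + JSH23 and 305, 318 and 287 CPM in WTL + JSH23. The 4 groups did not overlap in CPM, whereas in TPM those of WT (153 to 159) and WTL + JSH23 (143 to 161) did. LPS raised Tlr2 by 0.59 log2 units without JSH-23 (SE 0.04, adjusted p = 1.51e-10) and by 0.67 with it (SE 0.04, adjusted p = 3.66e-11), and the interval of the difference ran from -0.05 to 0.21. With limma on log2(TPM + 1) these rises were 0.25 and 0.46, and their difference of 0.21 did not pass (adjusted p = 0.0731). JSH-23 lowered it in both arms, by a log2 change of -0.48 without LPS (SE 0.04, adjusted p = 1.19e-08) and -0.40 under LPS (SE 0.04, adjusted p = 1.27e-07).

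**Figure D2:**
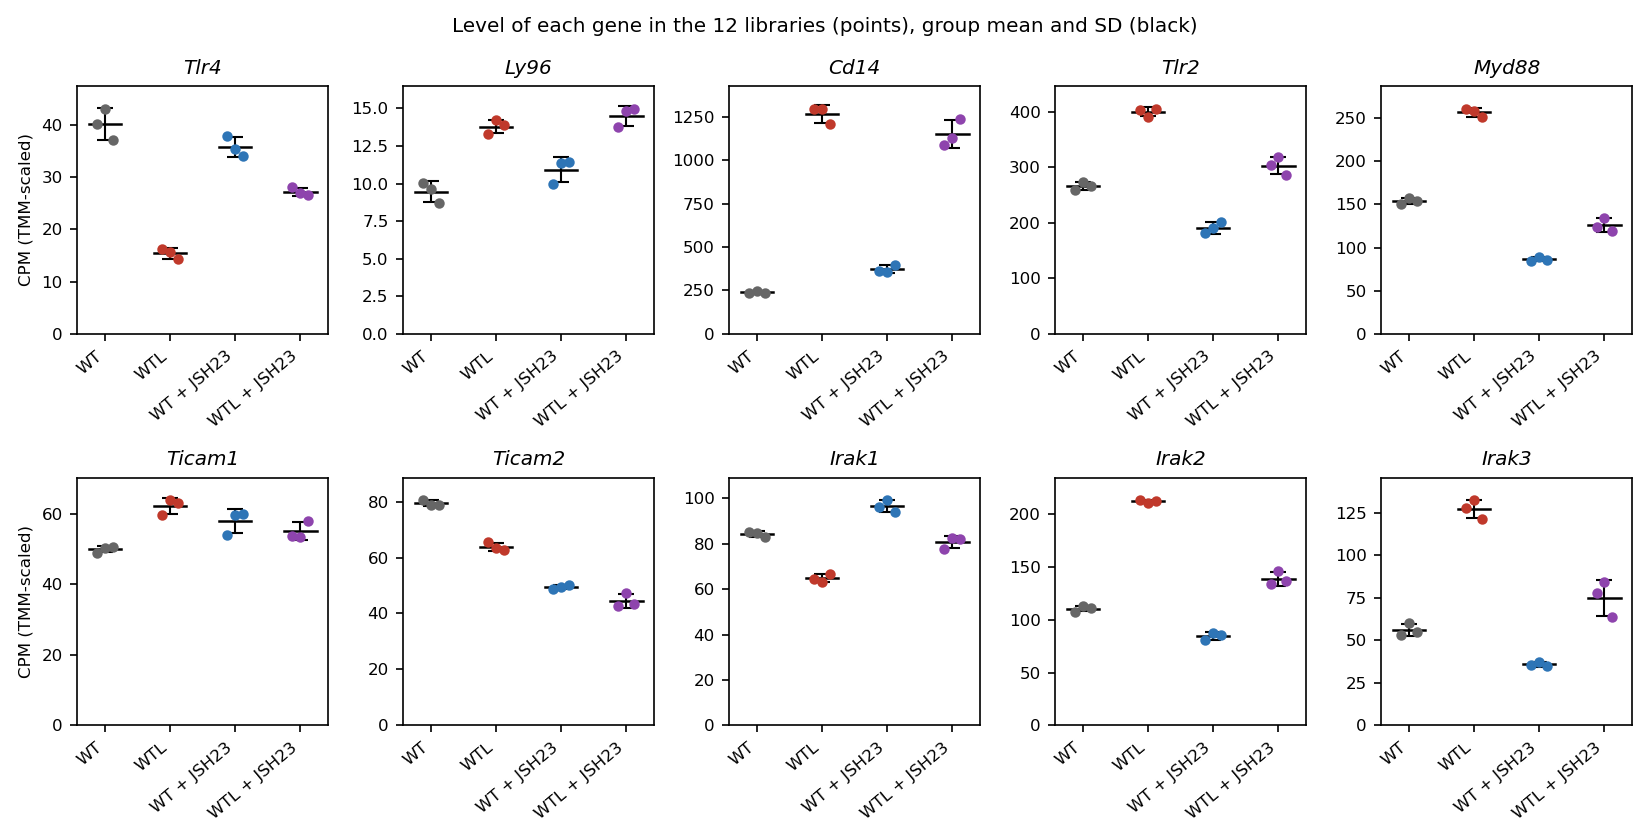
Level of the 10 genes (vertical axis, TMM-scaled CPM, from 0) in the 12 libraries (points) by group, with the group mean and SD in black. Tlr4 is lowest in WTL (14.3 to 16.2 CPM) and between WTL and WT in WTL + JSH23 (26.5 to 28.0 CPM), and Myd88 is highest in WTL (252 to 261 CPM) and below WT in both JSH-23 groups.

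Myd88 (chr9:119335934-119341411, minus strand), the adaptor of the NF-κB branch, was the member lowered most by JSH-23. It was 151, 158 and 154 CPM in WT and 84.7, 89.1 and 86.2 CPM in WT + JSH23, a fall of 0.83 log2 units (log2 change -0.83, SE 0.04, adjusted p = 1.78e-12). Under LPS it was 261, 258 and 252 CPM without JSH-23 and 124, 135 and 119 CPM with it, 2.04-fold lower (log2 change -1.03, SE 0.04, adjusted p = 3.48e-14). The WTL + JSH23 libraries lay below every untreated WT library. LPS raised Myd88 in each arm, by 0.74 log2 units without JSH-23 (SE 0.04, adjusted p = 1.58e-12) and by 0.54 with it (SE 0.04, adjusted p = 1.06e-09). The difference of -0.20 between these rises (SE 0.06, adjusted p = 0.0295) was lost in 8 of the 12 fits that left out a library, with adjusted p between 0.0510 and 0.0799. Those libraries were WT replicates 4 and 6, WTL replicates 4 and 5, WT + JSH23 replicates 2 and 3 and WTL + JSH23 replicates 1 and 3. On TPM that difference was -0.07 (limma, adjusted p = 0.501), and the rises of Myd88 were 0.40 and 0.33. Myd88 lies within Slc22a14 on the same strand and shares 1736 bases with Acaa1a on the other, and 3 libraries had fractional counts for it.

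Ticam1 (chr17:56269319-56276786, minus strand), which encodes TRIF, moved little and in different directions. It was 49.1, 50.3 and 50.8 CPM in WT, 59.8, 64.0 and 63.3 CPM in WTL, 54.1, 59.8 and 60.03 CPM in WT + JSH23 and 53.8, 53.6 and 58.2 CPM in WTL + JSH23. In CPM, Ticam1 was lower in WT than in all other groups. In TPM, its WT libraries (29.1 to 30.04) overlapped those of WTL (27.8 to 30.4) and WTL + JSH23 (27.3 to 29.3). LPS alone raised it by 0.32 log2 units (SE 0.05, adjusted p = 9.17e-06), but on TPM, where the median of all genes lay at -0.30, limma gave -0.016 (adjusted p = 0.804). JSH-23 alone raised it by 0.21 (SE 0.05, adjusted p = 0.00148). With both agents it was below WTL (log2 change -0.18, SE 0.05, adjusted p = 0.00581; not passed on TPM, -0.05, adjusted p = 0.460). The libraries of WT + JSH23 and WTL + JSH23 overlapped, and the LPS change there was -0.07 (interval -0.18 to 0.03, adjusted p = 0.240). It passed with upper quartile scaling (-0.16, adjusted p = 0.0104) and on TPM (-0.27, adjusted p = 0.00110), where the medians of all genes lay at -0.10 and -0.18. The LPS change of Ticam1 differed between the arms by -0.39 (SE 0.07, adjusted p = 0.000544), which passed in all 12 fits without a library and was -0.25 on TPM (limma, adjusted p = 0.0451).

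Ticam2 (chr18:46557291-46574533, minus strand), which encodes the bridge TRAM, was highest in untreated cells and fell with each agent. It was 80.6, 78.9 and 78.9 CPM in WT, 65.4, 63.4 and 62.8 CPM in WTL, 48.9, 49.6 and 50.3 CPM in WT + JSH23 and 42.5, 47.4 and 43.5 CPM in WTL + JSH23. No pair of groups overlapped in CPM, whereas in TPM those of WTL (20.7 to 21.6) and WT + JSH23 (20.3 to 21.02) did. The fall with JSH-23 was the larger, with a log2 change of -0.68 without LPS (SE 0.04, adjusted p = 4.13e-11) and -0.52 under LPS (SE 0.05, adjusted p = 4.40e-09). LPS lowered it by a log2 change of -0.32 without JSH-23 (SE 0.04, adjusted p = 1.64e-06) and -0.16 with it (SE 0.05, adjusted p = 0.00651), of which the latter was lost without WTL + JSH23 replicate 1 (-0.12, adjusted p = 0.0573). The difference between both LPS changes did not pass with edgeR (0.16, interval 0.03 to 0.29, adjusted p = 0.0913) and passed on TPM (0.28, adjusted p = 0.0193), where the LPS changes of Ticam2 were -0.62 and -0.34. On TPM the median of that difference over all genes lay at 0.12. Ticam2 shares 14299 bases with Tmed7 on the same strand, and 3 libraries had fractional counts for it.

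Irak1 (chrX:74013914-74023918, minus strand) encodes the kinase released from the MyD88 complex and holds a κB match next to its start. It went against Irak2 and Irak3 in all 4 comparisons of groups. It was 85.01, 84.9 and 83.0 CPM in WT and 64.4, 63.2 and 66.7 CPM in WTL, and 96.1, 99.3 and 94.0 CPM in WT + JSH23 and 77.6, 82.6 and 82.0 CPM in WTL + JSH23. LPS libraries lay below their own controls in each arm. It fell with LPS alone (log2 change -0.38, SE 0.04, adjusted p = 5.51e-08) and with LPS after JSH-23 (-0.26, SE 0.04, adjusted p = 1.63e-05). JSH-23 raised it by 0.19 without LPS (SE 0.04, adjusted p = 0.000468) and by 0.32 under LPS (SE 0.04, adjusted p = 1.78e-06). The LPS changes differed by 0.13 (adjusted p = 0.149), which did not pass with edgeR, and by 0.37 on TPM (adjusted p = 0.00893), where Irak1 changed by -0.74 with LPS alone and by 0.57 with JSH-23 under LPS. The microRNA genes Mir718 and Mir5132 lie inside Irak1 on the same strand.

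Irak2 (chr6:113638467-113695026, plus strand), which acts with Irak1 and sustains the response, and Irak3 (chr10:120141648-120202130, minus strand), the inhibitory member, moved together. Irak2 was 108, 113 and 111 CPM in WT and 214, 211 and 213 CPM in WTL, a rise of 1.92-fold (log2 change 0.94, SE 0.04, adjusted p = 2.08e-14). After JSH-23 it was 80.5, 88.0 and 85.7 CPM without LPS and 134, 146 and 137 CPM with LPS, a rise of 1.64-fold (log2 change 0.71, SE 0.04, adjusted p = 6.70e-12). The groups of Irak2 did not overlap in CPM, though in TPM WT and WTL + JSH23 did. JSH-23 lowered Irak2 without LPS (log2 change -0.39, SE 0.04, adjusted p = 2.05e-07) and under LPS (-0.61, SE 0.04, adjusted p = 7.28e-11). The LPS rise of Irak2 differed between the arms by -0.23 (SE 0.06, adjusted p = 0.0107), but limma on TPM gave 0.0073 (adjusted p = 0.964), where the median of all genes lay at 0.12 and the rise of Irak2 with LPS alone was 0.55. All 12 libraries had fractional counts for Irak2, and a same-strand gene model of unknown type, Gm43912, lies within it. On the opposite strand, Gm43963 shares 2488 bases with Irak2 and Gm43964 shares 960.

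Irak3 was 53.2, 59.9 and 54.9 CPM in WT and 127.7, 132 and 121 CPM in WTL, which is 2.27-fold higher (log2 change 1.18, SE 0.07, adjusted p = 2.72e-12). In WT + JSH23 it was 35.6, 37.2 and 34.6 CPM and in WTL + JSH23 77.6, 84.0 and 63.4 CPM, which is 2.10-fold higher (log2 change 1.07, SE 0.07, adjusted p = 7.73e-11). Its groups did not overlap in CPM, though in TPM WT and WTL + JSH23 did, and WTL + JSH23 replicate 3, the library that stood apart, was the lowest of its group. JSH-23 lowered Irak3 without LPS (log2 change -0.65, SE 0.07, adjusted p = 3.51e-07) and under LPS (-0.76, SE 0.07, adjusted p = 7.34e-09). The latter lay between -0.85 and -0.66 in the 12 fits that left out a library. The LPS rises of Irak3 differed by -0.11, with an interval of -0.33 to 0.10. On the opposite strand, Tmbim4 shares 541 bases with Irak3 and the antisense gene Gm47009 shares 1697. Whether the counting used the strand is not given in the sources used here.

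Levels of different genes can be compared only per transcript length, as TPM (transcript abundance scaled to a common total per library). In WT, Cd14 was the most abundant at 299 TPM, followed by Tlr2 (156), Myd88 (145), Irak2 (75.7), Irak1 (56.1), Ly96 (39.9), Irak3 (33.5), Ticam2 (33.3), Ticam1 (29.5) and Tlr4 (17.8). Only Irak3 and Ticam2 overlapped among neighbours in that order. Cd14 stood first and Tlr4 last in all 4 groups. In WTL, Cd14 reached 1254 TPM and Tlr4 dropped to 5.16 TPM, and Myd88 (191 TPM) and Tlr2 (186 TPM) overlapped. In WT + JSH23 the order was Cd14 (464 TPM), Tlr2 (111), Myd88 (80.9), Irak1 (65.0), Irak2 (55.3), Ly96 (45.8), Ticam1 (34.1), Irak3 (21.3), Ticam2 (20.6) and Tlr4 (15.2), so that Irak1 stood above Irak2 in that group, the reverse of the other 3. Irak3 and Ticam2 again overlapped there. In WTL + JSH23, Cd14 was at 1247 TPM, Tlr2 at 153 and Myd88 at 102, Ly96 (52.2 TPM) overlapped Irak1 (49.8 TPM), and Tlr4 was at 10.6 TPM.

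**Figure D3:**
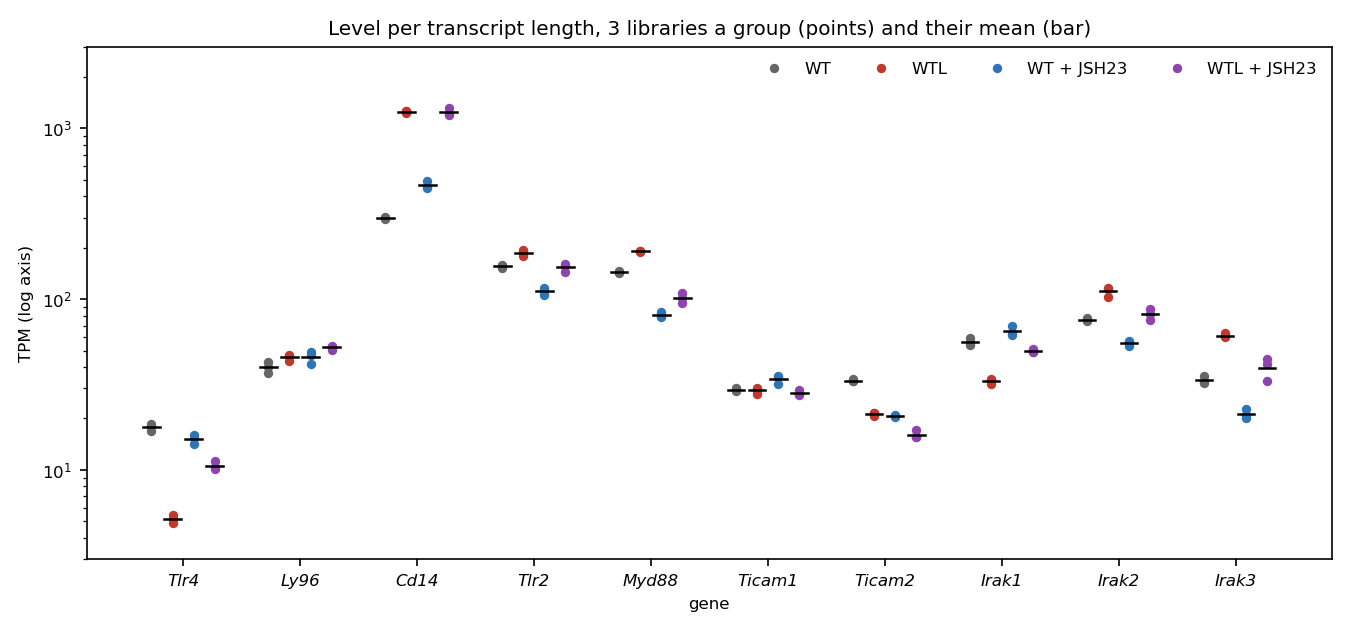
TPM as deposited (vertical log axis) of the 10 genes in the 4 groups; points are libraries and bars are group means. Cd14 is the highest gene in each group (299 to 1254 TPM as group means) and Tlr4 the lowest (5.16 to 17.8 TPM).

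Ratios between genes were taken within each library and tested with an exact permutation test, two-sided, in which the labels of each agent were permuted within the strata of the other. This exact test has 400 arrangements and cannot go below p = 0.005, and p-values were adjusted over 16 such tests together with the Irak shares. The Cd14 to Tlr4 ratio was 16.9 ± 0.678 (SD, n = 3) in WT, 243 ± 8.03 in WTL, 30.8 ± 3.38 in WT + JSH23 and 118 ± 2.43 in WTL + JSH23. LPS raised it in both arms (mean log2 difference 2.90, exact permutation adjusted p = 0.00615). JSH-23 moved it up by 0.86 log2 units without LPS and down by 1.04 with LPS, with a log2 difference of -1.04 there, and the pooled difference of -0.09 did not pass (exact permutation adjusted p = 0.660). Ly96 to Tlr4 behaved alike, at 2.25, 8.88, 3.03 and 4.94 in the same order of groups, with an LPS difference of 1.34 log2 units (exact permutation adjusted p = 0.00615) and a pooled JSH-23 difference of -0.21 (0.363) made up of 0.43 without LPS and -0.84 with it. The ratio of Tlr2 to Tlr4 was 8.79, 36.1, 7.38 and 14.6. It was higher with LPS by 1.51 log2 units and lower with JSH-23 (-0.78), both at an exact permutation adjusted p of 0.00615. The JSH-23 difference was made up of -0.26 without LPS and -1.31 with it.

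The balance of the adaptors, Ticam1 to Myd88, was 0.204 ± 0.00364 (SD, n = 3) in WT, 0.153 ± 0.00768 in WTL, 0.421 ± 0.0179 in WT + JSH23 and 0.277 ± 0.0286 in WTL + JSH23. The 4 groups did not overlap. JSH-23 raised this ratio in both arms, by 1.05 log2 units without LPS and 0.85 under LPS (mean 0.95, exact permutation adjusted p = 0.00615). LPS lowered it, with a mean log2 difference of -0.51 (exact permutation adjusted p = 0.00615).

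**Figure D4:**
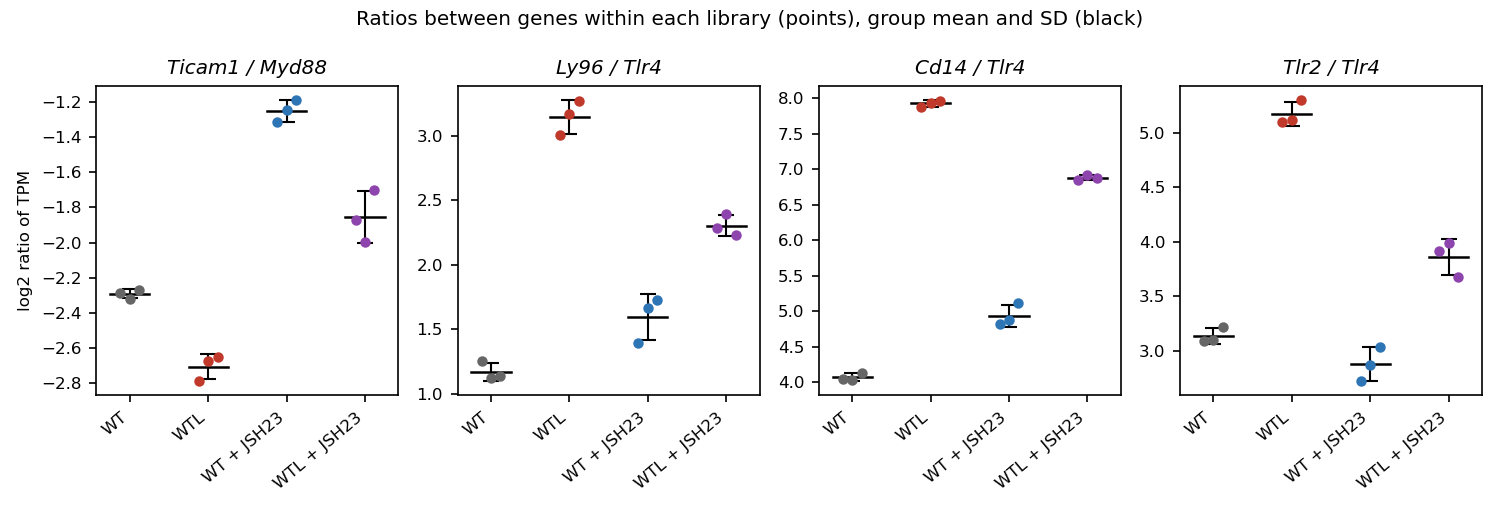
Log2 ratio of TPM between pairs of genes (vertical axis) in each library (points) by group, with the group mean and SD in black. Cd14, Ly96 and Tlr2 over Tlr4 are highest in WTL, and Ticam1 over Myd88 is highest in WT + JSH23 (-1.31 to -1.19).

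The composition of the Irak family was taken as the share of each of Irak1 to Irak4 in their summed TPM. Irak1 made up 29.9% ± 0.814 (SD, n = 3) in WT, 15.1% ± 0.701 in WTL, 40.4% ± 0.942 in WT + JSH23 and 26.9% ± 1.64 in WTL + JSH23. LPS lowered the Irak1 share by a mean difference of -14.1 percentage points and JSH-23 raised it by 11.2, each at an exact permutation adjusted p of 0.00615. Irak2 was the largest share in WT (40.3%), WTL (50.7%) and WTL + JSH23 (44.1%) but not in WT + JSH23 (34.4%). Its share rose with LPS (10.02 points) and fell with JSH-23 (-6.22), at the same exact permutation adjusted p. The inhibitory Irak3 took 17.8% in WT, 27.9% in WTL, 13.2% in WT + JSH23 and 21.3% in WTL + JSH23, which is 9.07 points more with LPS and a difference of -5.59 points with JSH-23 (same exact permutation adjusted p). Irak4, the kinase that starts the cascade, held 11.97%, 6.36%, 11.9% and 7.63%, lower with LPS (-4.94 points, exact permutation adjusted p = 0.00615). Its JSH-23 difference of 0.61 points did not pass (exact permutation adjusted p = 0.114), though it did without WT replicate 6 (0.77 points, 0.0229).

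**Figure D5:**
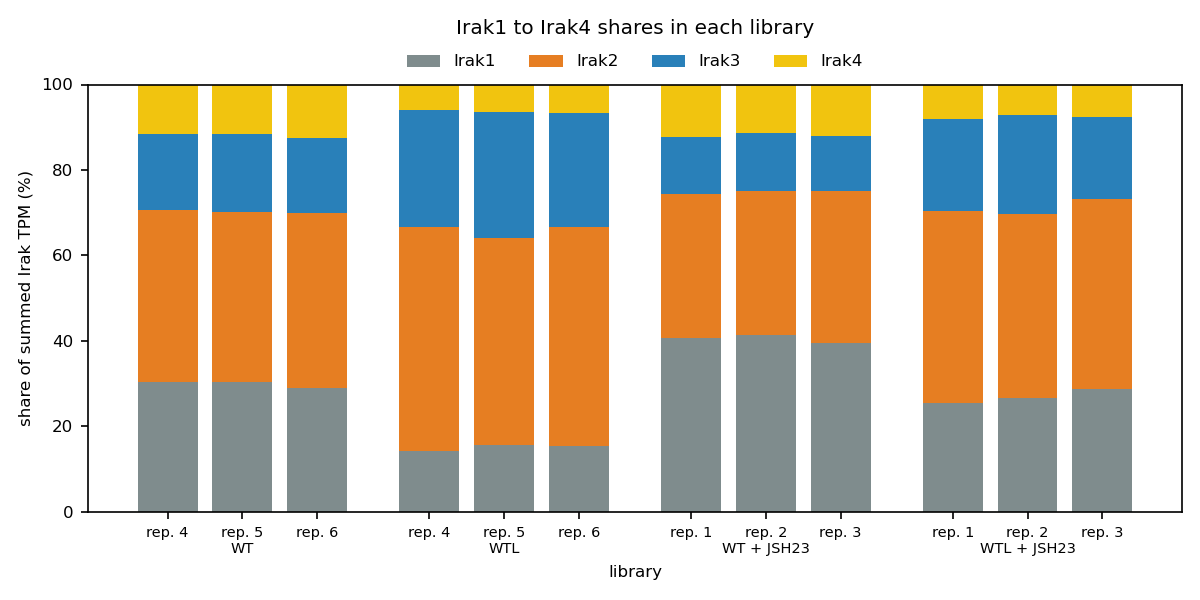
Share of Irak1, Irak2, Irak3 and Irak4 in their summed TPM (vertical axis, percent) in each of the 12 libraries, labelled by replicate and group. Irak1 is 14.3 to 15.7% of the sum in WTL and 39.4 to 41.3% in WT + JSH23.

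RSEM also gives the mean transcript length of a gene, weighted by its estimated isoforms, which moves where their mix moves. Tlr2 and Ticam1 have a single annotated transcript and a fixed length. Irak1, with 22 annotated transcripts, had 2491 to 2562 bases in WTL + JSH23, below the 2628 to 2830 of WTL and every library of WT (2564 to 2759) and WT + JSH23 (2575 to 2684). The ranges of Tlr4 were 3835 to 3977 in WT, 4062 to 4077 in WTL, 4005 to 4077 in WT + JSH23 and 3516 to 4069 in WTL + JSH23, where replicate 3 was the lowest. For Irak2 the range was 2429 to 2740 in WTL + JSH23 and overlapped all other groups. These lengths are estimates from short reads and were not tested.

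The genes whose log2 CPM followed a member most closely over the 12 libraries are given as a description, since the libraries share the 4 groups. For Tlr4 they were Pde4dip (Pearson r = 0.987), Lpin2 (0.982) and Sepsecs (0.979). Those nearest to Myd88 were Ifih1 (0.998), the cytosolic RNA sensor MDA5, St3gal5 (0.997) and Pilra (0.997). Ticam1 had looser neighbours, Psmg4 (0.930), Fam221b (0.919) and Ndufa1 (0.884). Among the 10 genes themselves, Irak2 and Irak3 were the most alike (r = 0.989), followed by Tlr2 and Irak3 (0.985), and Irak1 was opposite to Irak2 (-0.970).

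The other genes of the pathway were taken from a list of 46, of which 43 were tested and Tlr5, Sarm1 and Il1rl1 were too low. With LPS alone 21 rose and 16 fell, where 31.0% and 34.7% of all genes did, and their median log2 change was 0.10 against -0.05 over all genes. With LPS after JSH-23, 23 rose and 14 fell, against 27.4% and 27.1% of all genes, with medians of 0.10 and -0.02. JSH-23 without LPS raised 3 and lowered 26, against 18.8% and 22.1%, with medians of -0.21 and -0.01. Under LPS it raised 9 and lowered 23, against 24.5% and 24.2%, with medians of -0.21 and 0.02. For the interaction 10 passed upwards and 5 downwards, against 9.54% and 8.44%, with medians of 0.06 and 0.03. The same shares of all genes apply to the classes below, whose small sizes leave each count as a description.

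Among the 9 other Toll-like receptors tested, 3 rose and 6 fell with LPS alone, and 7 of the 9 fell with JSH-23 alone. After JSH-23, 3 rose and 5 fell with LPS, and under LPS JSH-23 raised 2 and lowered 5. Tlr11, a receptor for profilin, fell most with LPS (log2 change -3.37, SE 0.21, adjusted p = 7.97e-12), and also after JSH-23 (-2.01, SE 0.27, adjusted p = 1.95e-06). It also fell with JSH-23 alone (log2 change -1.83, adjusted p = 1.37e-08), and its LPS changes differed by 1.37 (SE 0.39, adjusted p = 0.0195). Its level was low, with means of 4.72 CPM in WT and 0.461 in WTL. After JSH-23 they were 1.32 CPM without LPS and 0.325 with it. Tlr12, which pairs with Tlr11, fell by 2.05 log2 units with LPS alone (log2 change -2.05, adjusted p = 3.47e-09), with a difference between arms of 0.93 (adjusted p = 0.0185). Its means were 5.36 CPM in WT, 1.33 in WTL, 4.54 in WT + JSH23 and 2.08 in WTL + JSH23. The nucleic acid sensors Tlr8 and Tlr3 also fell with JSH-23, with log2 changes of -1.74 and -1.42 without LPS and -1.97 and -1.30 under LPS (adjusted p = 5.16e-11, 9.35e-11, 2.65e-11 and 1.43e-09). For the interaction, 5 of the 9 passed upwards and 1 downwards with edgeR, while 5 passed with DESeq2 and 2 with limma on log2(TPM + 1).

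Of 17 kinases and ubiquitin ligases that follow the adaptors, 11 rose and 3 fell with LPS alone, and 12 rose and 3 fell with LPS after JSH-23. JSH-23 raised 1 and lowered 8 of them without LPS, and raised 5 and lowered 7 under LPS, and 3 passed in each direction for the interaction. DESeq2 called 7 of the 17 for the interaction, and limma on TPM 2. Tab1, a partner of the kinase TAK1, had the largest interaction of these (0.56, SE 0.12, adjusted p = 0.00264). Of 7 inhibitors tested, 3 rose and 2 fell with LPS alone, 5 rose and 1 fell with LPS after JSH-23, and JSH-23 raised 2 and lowered 4 in each arm. For the interaction 0 of these 7 passed with edgeR, while 3 had an unadjusted p under 0.05, 0 passed with DESeq2 and 2 passed with limma on TPM. Tnfaip3, the ubiquitin-editing enzyme A20, rose by 2.68 (SE 0.04, adjusted p = 1.73e-21) and 2.61 log2 units (SE 0.04, adjusted p = 5.59e-21) without and with JSH-23. Socs1 rose by 1.61 with LPS alone (SE 0.06, adjusted p = 1.40e-15) and by 1.75 after JSH-23 (SE 0.07, adjusted p = 6.93e-15). The difference of both rises did not pass (0.13, adjusted p = 0.375). Socs1 was lower with JSH-23 without LPS (log2 change -1.12, SE 0.07, adjusted p = 3.62e-11) and under LPS (-0.99, SE 0.06, adjusted p = 1.30e-11).

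Of the smaller classes, Cd180 and Ly86, which form a receptor like TLR4 and MD-2, fell in all 4 comparisons of groups, and Lbp did not pass in any (below 1 CPM). Cd180 alone of these passed for the interaction (0.41, adjusted p = 0.000230). Of 5 genes for folding and trafficking, 3 rose and 2 fell with LPS alone, 2 rose and 2 fell with LPS after JSH-23, 3 fell in each JSH-23 comparison and 1 passed in each direction for the interaction. Of the 2 other adaptors tested, Pik3ap1 rose and Tirap fell with LPS in both arms, and both fell with JSH-23 in both arms, by log2 changes of -0.91 and -0.29 without LPS and -0.95 and -0.48 under LPS. For the interaction 0 of these 2 passed with edgeR, DESeq2 or limma on TPM, and 1 had an unadjusted p under 0.05.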

How the data were processed

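Bulk RNA-seq of 12 libraries was analysed, with the group of each library taken from its title. The authors trimmed reads with Trim Galore, aligned them to mm10 with STAR (2.6.0c in the submitters' processing notes) and quantified genes with RSEM, and the release of their GENCODE annotation is not given in the sources used here. The notes also list HOMER. The labels describe rRNA depletion and the methods poly(A) selection with a stranded kit, and this was not settled.

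The authors deposited, per gene and library, an expected count (read pairs, shared out by RSEM where a pair fits more than 1 gene), TPM, FPKM, and the mean and effective transcript length, without filter or scaling between libraries. The fit used the expected counts. TPM and FPKM, which the authors derived from those counts and effective lengths, were used as deposited. Symbols and positions came from GENCODE M21 (55154 of 55335 identifiers matched without version).

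Expected counts were rounded, filtered with filterByExpr and scaled by TMM in edgeR 4.0.16 (R 4.3.3). The quasi-likelihood F-test was fitted to all 12 libraries with a mean per group and 8 residual degrees of freedom, and p-values were adjusted by Benjamini-Hochberg over 14357 genes. SE is the absolute log2 change divided by the square root of F. CPM is scaled by TMM. The methods call replicates biological. Nothing in the labels names separate cultures, so p-values measure the spread between these libraries. Scripts were tested on simulated data.

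Ratios and shares of TPM were tested by exact permutation. DESeq2 1.42.0, limma 3.58.1 on TPM (pseudocounts 1 and 0.1, mean TPM of at least 1), other scalings, filters and left-out libraries were alternatives. All 10 genes are named in every comparison. Of the other pathway genes, the 3 largest passing changes per comparison (at 1 CPM or more in the higher group on average) are named. Further values of genes named in this way, of Irak4 and of members of the smaller classes were chosen after they were seen. Genes like Tlr4, Myd88 and Ticam1 were sought among officially named protein-coding genes. A further macrophage marker is not reported here. The genes and lists were chosen with earlier results of these data known. Promoter sequences (RefSeq) of Tlr4, Cd14, Ly96 and Ticam2 were not analysed here.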

Additional observations from a re-analysis of the deposited data

Results flagged for a closer look

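For 5 of the 10 genes the change with LPS was unequal in the 2 arms, without and with JSH-23, by the interaction term of the edgeR model. Of all genes tested, 9.54% passed upwards and 8.44% downwards for that term. The difference (log2 change with JSH-23 minus without) was 0.99 for Tlr4 (adjusted p = 2.52e-07), which fell in both arms and by less after JSH-23. It was -0.78 for Cd14 (adjusted p = 2.05e-07), which had risen with JSH-23 before LPS. For Ticam1 it was -0.39 (adjusted p = 0.000544), for Irak2 -0.23 (adjusted p = 0.0107) and for Myd88 -0.20 (adjusted p = 0.0295). Those of Tlr4, Cd14 and Ticam1 passed with each library left out and on TPM, that of Irak2 with each library left out but not on TPM, and that of Myd88 in only 4 of 12 such fits and not on TPM. Groups of 3 are too small for a test of single outlying libraries.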

How the results depend on the processing

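Of 1020 fitted changes of the 10 genes under the alternatives, 977 kept direction and side of the threshold, 30 no longer passed, 9 newly passed and 4 turned direction. The 4 were Ticam1 with LPS alone, at -0.016 with limma on log2(TPM + 1) and -0.016 on log2(TPM + 0.1), and the interaction of Irak2, at 0.0073 and 0.0094. The alternatives include fits that left out a library of neither group compared. Such fits could hardly differ from the main fit, so the number kept is a generous measure. On TPM the median of all genes lay at -0.30 or -0.33 with LPS alone, -0.18 or -0.20 with LPS after JSH-23, 0.12 or 0.13 with JSH-23 under LPS and 0.12 or 0.13 for the interaction, and the genes called higher and lower with LPS alone went from 4451 and 4986 to 1713 and 7006 with a pseudocount of 1. Upper quartile scaling gave medians of -0.13 and -0.10 for LPS without and with JSH-23. Both TPM fits counted 3 members higher and 2 lower for the interaction, where Irak1 and Ticam2 newly passed and Myd88 and Irak2 did not pass. Of the 12162 genes in these fits, 1440 were higher and 345 lower with a pseudocount of 1. With a pseudocount of 0.1 they were 1467 and 325, so the members shifted in the same direction as all genes. With a change of more than 2-fold also required, the members higher and lower were 2 and 1 for LPS alone, 2 and 0 for LPS after JSH-23, 0 and 1 for JSH-23 under LPS, and 0 and 0 both for JSH-23 alone and for the interaction. Levels in TPM and in CPM ordered the 4 groups alike except in 1 of 6 pairs for Tlr2 and Ly96 and 3 of 6 for Ticam1. With effective in place of mean lengths, 16 of 40 differences in length between groups moved by more than the spread between replicates, all for genes of near constant length. The TMM factors were 1.08 to 1.095 in WT and 0.859 to 0.880 in WTL. In the JSH-23 groups they were 1.11 to 1.12 without LPS and 0.939 to 0.956 with LPS. TPM was fitted without these factors. The cause of the shifts on TPM and in length was not tested.

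Same-numbered libraries of an arm correlated at 0.014 to 0.061 in their deviations from the group means. Differently numbered ones correlated at -0.056 to 0.035. These small values do not show that pairing is absent, and the main fit did not use the numbers as pairs. With the replicate number as a replicate block, 0 of 30 calls changed, with the interaction of Myd88 at -0.20 (adjusted p = 0.0110) and that of Tlr4 at 0.99.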
